A study of Homo sapiens with 27 samples.

Results

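The genes described here are 10 regulators of apoptosis from the BCL2 family, read in U937 cells treated with matrine. They were taken by their symbols and are BCL2, BCL2L1, MCL1, BCL2A1, BAX, BAK1, BCL2L11, BBC3, PMAIP1 and BID, which is 10 of the 57905 genes in the count table, of which 51996 had a symbol in release 44 of the GENCODE annotation. U937 is a human myeloid leukemia cell line of monocytic character, and matrine is an alkaloid from the root of Sophora flavescens. The study sequenced mRNA from U937 cells without matrine (control) and from U937 cells exposed for 30 min or for 24 h to matrine at 0.8 mg/ml, with 3 libraries in each group. All groups were the same unmodified line, the vehicle was water, and the culture time of the controls is not given in the sources used here, so hours in culture and 24 h of matrine cannot be told apart.

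BCL2 family proteins decide at the outer mitochondrial membrane whether a cell releases cytochrome c and activates its caspases. The pro-survival proteins (BCL2, BCL-xL from BCL2L1, MCL1 and BFL-1 from BCL2A1) hold the pore-forming effectors BAX and BAK in check. The BH3-only proteins (BIM from BCL2L11, PUMA from BBC3, NOXA from PMAIP1, and BID) report stress or receptor signals by occupying the pro-survival proteins or by activating the effectors. Myeloid leukemia cells often rely on MCL1 or BCL2, and BCL2A1 is a gene of the myeloid and lymphoid lineages.

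The DNA before the gene start is shown for 4 members on which the results turn: BCL2A1 and BBC3, which rose, PMAIP1, which fell earliest, and the effector BAX for contrast. The sequences are from RefSeq on GRCh38.p14, they run 5′ to 3′ on the strand of the gene, and they stop before the gene start in both RefSeq and GENCODE. The table used held upstream DNA for 7 of the 10 members. Capitals mark matches, on either strand, to 6 motifs that were chosen after the sequences were seen. The GC box was searched as the letters GGGCGG and the site of ATF and CREB proteins as TGACGT. The AP-1 site was searched as TGANTCA, with N for any base, and the E-box as CACGTG. The TATA box was searched as TATAAA and the core read by PU.1 and other ETS proteins as GAGGAA. BCL2A1 is read from chr15:79971197-79971446 on the minus strand, BBC3 from chr19:47232767-47232917 on the minus strand, PMAIP1 from chr18:59899746-59899995 on the plus strand and BAX from chr19:48954625-48954814 on the plus strand.
BCL2A1: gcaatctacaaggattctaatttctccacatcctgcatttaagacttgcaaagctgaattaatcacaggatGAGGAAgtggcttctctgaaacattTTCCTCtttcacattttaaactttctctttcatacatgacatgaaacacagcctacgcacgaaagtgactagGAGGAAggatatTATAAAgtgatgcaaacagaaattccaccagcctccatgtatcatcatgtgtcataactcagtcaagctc
BBC3: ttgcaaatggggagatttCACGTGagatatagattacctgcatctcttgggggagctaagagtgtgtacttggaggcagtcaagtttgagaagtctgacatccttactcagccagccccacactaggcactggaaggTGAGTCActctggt
PMAIP1: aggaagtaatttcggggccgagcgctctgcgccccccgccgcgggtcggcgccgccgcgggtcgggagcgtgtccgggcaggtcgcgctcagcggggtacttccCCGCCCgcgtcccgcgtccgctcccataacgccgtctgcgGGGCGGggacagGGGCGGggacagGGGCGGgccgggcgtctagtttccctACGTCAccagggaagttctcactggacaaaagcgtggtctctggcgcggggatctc
BAX: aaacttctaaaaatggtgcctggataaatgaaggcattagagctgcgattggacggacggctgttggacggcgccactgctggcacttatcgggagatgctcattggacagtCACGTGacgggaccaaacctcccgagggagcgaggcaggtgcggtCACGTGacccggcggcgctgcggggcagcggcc

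The 4 sequences differ in base composition and in the motifs they hold. Over the 250 bases before the RefSeq start, G and C made up 38.8% in BCL2A1, 49.2% in BBC3, 62.8% in BAX and 72.8% in PMAIP1, against a median of 58% over all 35116 promoters. BCL2A1 held a TATA match 70 bases before the start and 3 matches to the PU.1/ETS core, the sequence read by the myeloid factor PU.1. TATAAA occurred in 10.7% of all promoters and GAGGAA in 23.6%. Each share given here counts promoters with any match, however many they hold. PMAIP1 held 4 GC boxes and, 56 bases before the start, an ATF/CREB match. Any GC box was found in 42.6% of all promoters and any ATF/CREB match in 7.10%. BBC3 held an E-box 232 bases and an AP-1 match 113 bases before the start. BAX held 4 E-boxes in its 250 bases, 2 of them in the stretch printed, and a GC box outside that stretch. A GC box was found in 4 of the 7 member promoters. The E-box is the sequence bound by MYC and its partners, and it occurred in 6.34% of all promoters. MYC itself was named after its values were seen. It read 204 to 213 FPKM in control, 49.1 to 58.0 FPKM at 30 min and 42.2 to 46.1 FPKM at 24 h. The AP-1 sequence occurred in 6.57% of all promoters. These matches describe letters only, since no binding was measured.

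The libraries held 17314931 to 21930018 counted reads, and the spread within each group exceeded counting error. Myeloid markers were present in all 9 libraries, with SPI1 at 54.4 to 73.0 FPKM (fragments per kilobase of gene, scaled to the depth of the library), LYZ at 241 to 313 FPKM, ELANE at 823 to 1457 FPKM and CD33 at 13.9 to 16.6 FPKM. MPO and CSF1R were low, at 0.21 to 1.94 and 0.53 to 0.73 FPKM. The T cell, B cell, erythroid and epithelial markers CD3E, MS4A1, HBB and EPCAM were at 0 in every library. The labels do not say that the 3 libraries of a group came from separate cultures, so each p-value measures the spread between these libraries, which may be technical. In bulk RNA, fewer cells that use a gene and less RNA of it per cell cannot be told apart.

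All 10 members passed the filter on low levels in each comparison, a mean above 1 FPKM. Genes were tested with edgeR's quasi-likelihood test, and a gene was called where its fold was 1.5 or more and its adjusted p was below 0.05, while rose and fell are used of any gene with an adjusted p below 0.05. After 30 min, 0 of the 10 members were called higher and 0 lower, with 0.0949% and 0.544% of all 11587 tested genes called in these directions. At any fold, 0 members rose and 1 fell, against 0.293% and 1.33% of all tested genes. After 24 h, 2 members were called higher and 0 lower, with 14.7% and 11.6% of all 12035 tested genes called in these directions. At any fold, 2 members rose and 6 fell at 24 h, against 30.6% and 32.7% of all tested genes.

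From 30 min to 24 h, 2 members were called higher and 0 lower (15.7% and 11.3% of all 11981 tested genes), and at any fold 2 rose and 5 fell (33.2% and 32.1% of all tested genes). The median log2 fold change of the 10 members was -0.01 at 30 min and -0.20 at 24 h against control, with medians over all tested genes of 0.00 and -0.01. The 2 comparisons with control share their control libraries. The counts of called members were close to the share of all genes, so the values of single members carry the description that follows.

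**Figure D1:**
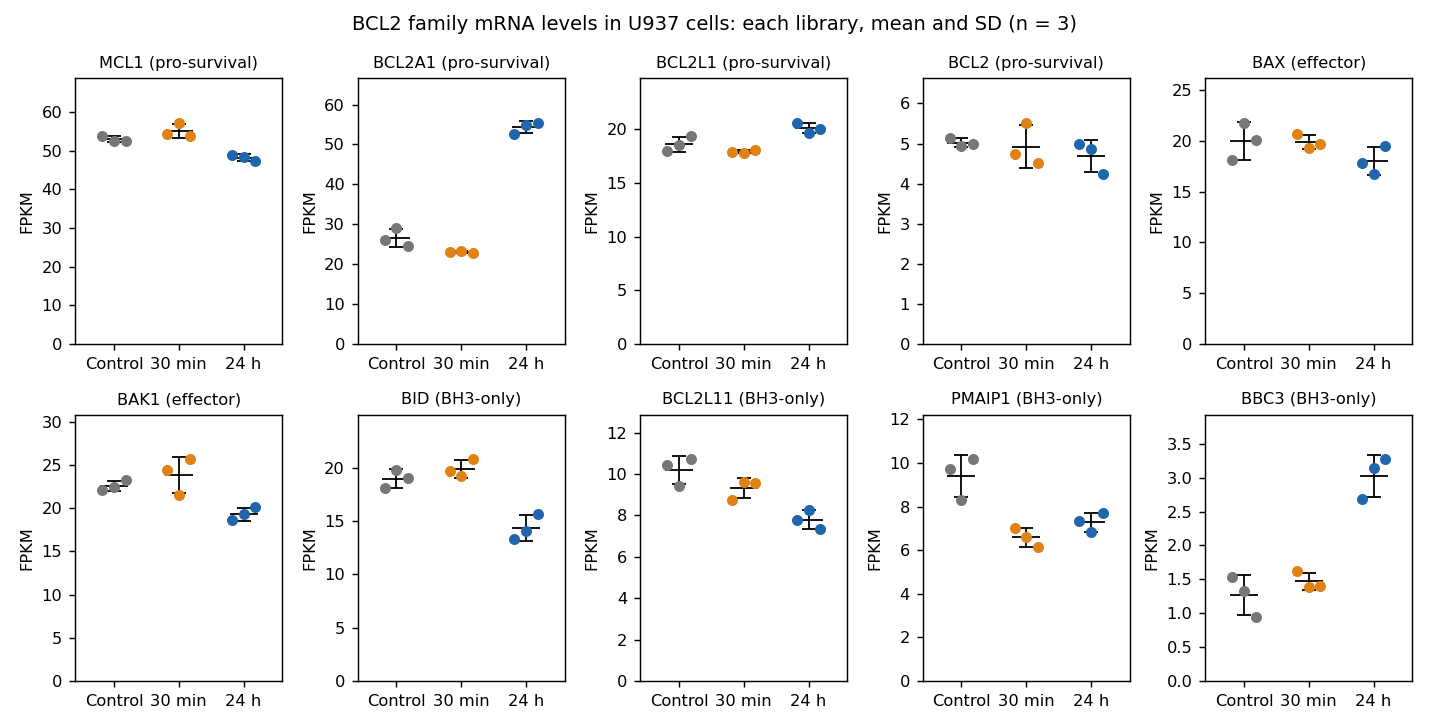
FPKM of the 10 members in each of the 9 libraries, in a separate panel for each gene with its own linear axis. Points are libraries, and bars give group means with SD (n = 3 per group). BCL2A1 and BBC3 lie above both earlier groups in all 3 libraries of 24 h, and PMAIP1 lies below control in all 3 libraries of both matrine groups.

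Among the pro-survival genes, BCL2A1 (ENSG00000140379, chr15:79960892-79971196, minus strand) changed the most. Its protein BFL-1 binds BIM, BID and NOXA, and the gene is a known target of NF-kB. BCL2A1 read 26.2, 29.0 and 24.6 FPKM in the control libraries, 23.2, 23.3 and 22.7 FPKM at 30 min, and 52.7, 54.8 and 55.4 FPKM at 24 h. All 3 libraries of 24 h stood above every other library, and the 30 min libraries stood just below the controls. At 24 h BCL2A1 rose 1.96-fold against control (95% interval 1.75 to 2.19, adjusted p = 1.1e-09, edgeR). At 30 min its log2 fold change was -0.19 (SE 0.08, adjusted p = 0.34), which did not pass the test. Over every alternative that gave a value, its log2 fold change at 24 h lay between 0.91 and 1.05.

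Myeloid markers also differed between control and 24 h. Of the 9 myeloid markers read, 4 lay above control without overlap at 24 h and 3 below. The share of all genes without overlap was not computed. The 14.7% and 11.6% of all tested genes called higher and lower follow the stricter rule of fold and adjusted p, so they are no background for these counts. ITGB2 went from 113.6 ± 2.00 to 223.0 ± 2.70 FPKM, ELANE from 885.1 ± 86.1 to 1378 ± 68.5 FPKM, PTPRC from 16.4 ± 1.31 to 24.2 ± 1.31 FPKM and MPO from 0.313 ± 0.117 to 1.84 ± 0.154 FPKM (SD, n = 3). LYZ went from 292.3 ± 6.58 to 243.6 ± 3.24 FPKM, and SPI1 and CEBPA were lower too, at 56.0 ± 2.58 and 32.9 ± 2.69 FPKM at 24 h against 67.6 ± 4.62 and 41.0 ± 2.70 FPKM. The 9 markers summed to 1371 to 1532 FPKM in the control libraries, 1449 to 1480 FPKM at 30 min and 1928 to 2058 FPKM at 24 h. ELANE held most of this sum in each group, so the sum mainly follows that gene. The part of the markers in the BCL2A1 value was not tested.

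MCL1 (ENSG00000143384, chr1:150560895-150579738, minus strand) encodes a short-lived pro-survival protein and was the most abundant member in the controls. It read 53.8, 52.5 and 52.5 FPKM in control, 54.3, 57.2 and 53.8 FPKM at 30 min, and 48.9, 48.4 and 47.4 FPKM at 24 h. The libraries of 24 h lay below all others, by little. MCL1 fell by 0.20 on the log2 scale against control (SE 0.05, adjusted p = 0.0023, edgeR) and by 0.26 against 30 min (adjusted p = 0.00013). At 30 min its log2 fold change was 0.07 (SE 0.05, adjusted p = 0.68). An exon of MCL1 shares 43 bases with ADAMTSL4 on the other strand, whose level was 2.26 to 2.79 FPKM in control and 5.32 to 5.66 FPKM at 24 h, the opposite direction to MCL1.

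BCL2L1 (ENSG00000171552, chr20:31664452-31723989, minus strand), which encodes BCL-xL, read 17.96, 18.5 and 19.3 FPKM in control, 17.9, 17.7 and 18.1 FPKM at 30 min, and 20.6, 19.6 and 20.03 FPKM at 24 h. Although the FPKM of 24 h lay above control without overlap, the test, which also scales for composition of the libraries, gave a log2 fold change of 0.05 (95% interval -0.08 to 0.18, adjusted p = 0.5, edgeR). BCL2 (ENSG00000171791, chr18:63123346-63320128, minus strand), the founding gene of the family, had the lowest level of the pro-survival genes, with group means of 5.02 ± 0.115, 4.93 ± 0.528 and 4.69 ± 0.405 FPKM (SD, n = 3) in control, 30 min and 24 h. Its libraries overlapped between all groups. The log2 fold change of BCL2 at 24 h was -0.16 (SE 0.09, adjusted p = 0.11), and it did not pass the test.

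The 4 pro-survival genes together read 103.1 ± 1.85 FPKM in control, 101.0 ± 2.44 FPKM at 30 min and 127.3 ± 0.361 FPKM at 24 h (SD, n = 3), a sum per gene length given as a description with no test. BCL2A1 made up 25.8% ± 1.73 of this sum in control, 22.9% ± 0.349 at 30 min and 42.7% ± 1.13 at 24 h. MCL1 made up 51.3% in control, 54.6% at 30 min and 37.9% at 24 h. The ratio of BCL2A1 to MCL1 thus went from 0.502 ± 0.0443 in control to 1.13 ± 0.0473 at 24 h, and BCL2A1 stood above MCL1 in all 3 libraries of 24 h and in no library of the other groups.

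**Figure D2:**
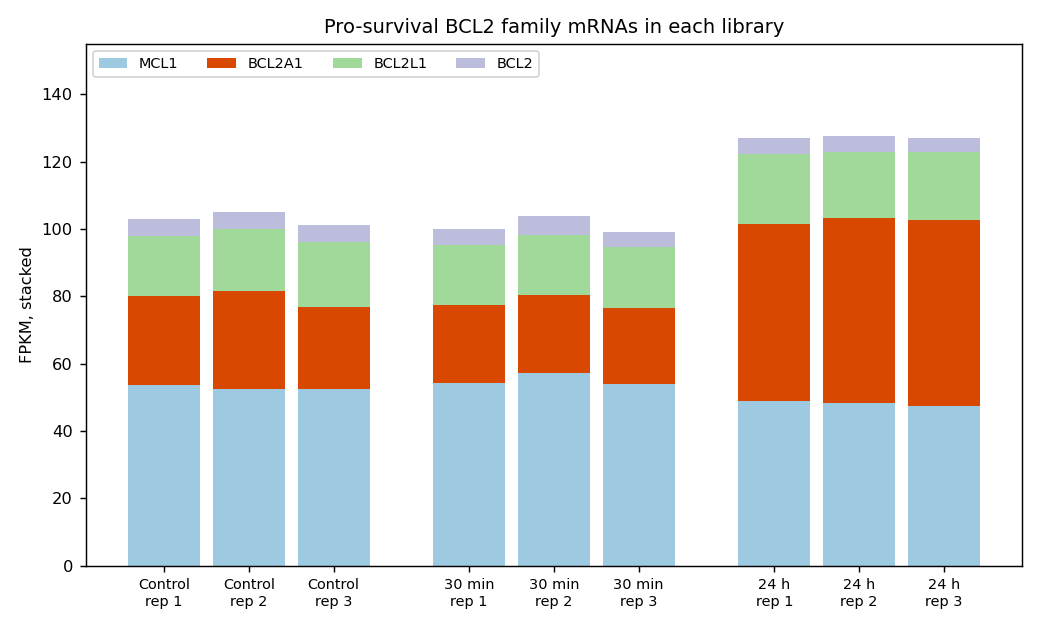
Stacked bars of the FPKM of BCL2A1, MCL1, BCL2L1 and BCL2 in each of the 9 libraries (FPKM, axis from 0). The sum is 127.0 to 127.7 at 24 h and 99.2 to 105.0 in the other libraries, and the BCL2A1 segment is 52.7 to 55.4 at 24 h and 22.7 to 29.0 in the other libraries.

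Of the effectors, BAK1 (ENSG00000030110, chr6:33572547-33580293, minus strand) encodes the effector that resides in the mitochondrial membrane of healthy cells. It read 22.1, 22.5 and 23.2 FPKM in control, 24.4, 21.5 and 25.6 FPKM at 30 min, and 18.6, 19.3 and 20.1 FPKM at 24 h, and the libraries of 24 h lay below all others. BAK1 fell by 0.29 on the log2 scale against control (SE 0.07, adjusted p = 0.0023, edgeR) and by 0.38 against 30 min (adjusted p = 0.00016). At 30 min its log2 fold change was 0.09 (SE 0.07, adjusted p = 0.72).

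BAX (ENSG00000087088, chr19:48954815-48961798, plus strand), the cytosolic effector, read 18.1, 21.8 and 20.1 FPKM in control, 20.6, 19.3 and 19.6 FPKM at 30 min, and 17.9, 16.7 and 19.4 FPKM at 24 h. The libraries of control and 24 h overlapped. BAX fell by 0.21 on the log2 scale at 24 h against control (SE 0.08, adjusted p = 0.03, edgeR), but the adjusted p was above 0.05 in 8 of 18 alternatives. These were 0.12 with library totals in place of TMM scaling, 0.12 with limma on log2(FPKM + 1) and on log2(FPKM + 0.1), 0.15 with genes above 5 FPKM, 0.15 and 0.054 without control replicate 2 or 3, and 0.088 and 0.16 without 24 h replicate 1 or 2. At 30 min the log2 fold change of BAX was 0.00 (SE 0.08, adjusted p = 0.99).

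The sum of BAX and BAK1 was 42.6 ± 2.15 FPKM in control, 43.7 ± 2.53 FPKM at 30 min and 37.3 ± 1.92 FPKM at 24 h (SD, n = 3). The pro-survival sum over the effector sum was 2.43 ± 0.124 in control, 2.32 ± 0.196 at 30 min and 3.42 ± 0.178 at 24 h. With BCL2A1 left out of the pro-survival sum, this ratio was 1.80 ± 0.103, 1.79 ± 0.159 and 1.96 ± 0.128. These are ratios of mRNA levels, and no protein was measured in these libraries.

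Of the BH3-only members, 1 rose and 3 fell at 24 h, against 30.6% and 32.7% of all tested genes. The BH3-only genes BMF and BIK, which are not members, also rose, and BAD did not pass the test. BBC3 (ENSG00000105327, chr19:47220822-47232766, minus strand) encodes PUMA, which binds all pro-survival proteins and is induced by cell stress. It was the least abundant member, at 1.53, 1.33 and 0.94 FPKM in control, 1.62, 1.39 and 1.40 FPKM at 30 min, and 2.68, 3.14 and 3.27 FPKM at 24 h. These values rest on 52 to 101 reads per control library, 91 to 113 reads at 30 min and 175 to 227 reads at 24 h. Every library of 24 h stood above every other library. BBC3 rose 2.27-fold at 24 h against control (95% interval 1.79 to 2.87, adjusted p = 2.3e-06, edgeR) and 1.95-fold against 30 min (adjusted p = 1.9e-05). At 30 min its log2 fold change was 0.22 (95% interval -0.15 to 0.58, adjusted p = 0.73), and at this depth a change of that size could not be shown.

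PMAIP1 (ENSG00000141682, chr18:59899996-59904305, plus strand) was the only member whose change passed the test at 30 min. It encodes NOXA, which binds MCL1 and BFL-1 and is induced by the integrated stress response. PMAIP1 read 9.70, 8.32 and 10.2 FPKM in control, 7.00, 6.60 and 6.14 FPKM at 30 min, and 7.32, 6.83 and 7.70 FPKM at 24 h. Both matrine groups lay below every control library, and they overlapped with each other. PMAIP1 fell by 0.50 on the log2 scale at 30 min against control (SE 0.10, adjusted p = 0.0082, edgeR), a 1.41-fold decrease that was below the 1.5-fold limit. With single libraries left out the log2 fold change stayed between -0.57 and -0.45, while the adjusted p was 0.07 without control replicate 1 (log2 fold change -0.46) and 0.065 without control replicate 3.

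At 24 h PMAIP1 fell by 0.43 on the log2 scale against control (SE 0.10, adjusted p = 0.00086, edgeR). The difference between 24 h and 30 min was 0.07 (95% interval -0.14 to 0.29, adjusted p = 0.54), so a further change after 30 min was not shown. Both falls are measured against the same 3 control libraries.

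BID (ENSG00000015475, chr22:17734138-17774770, minus strand) links death receptors to mitochondria, since caspase-8 cuts its protein into an active form. It read 18.1, 19.8 and 19.1 FPKM in control, 19.7, 19.2 and 20.8 FPKM at 30 min, and 13.3, 14.1 and 15.7 FPKM at 24 h, with the 24 h libraries below all others. BID fell by 0.46 on the log2 scale against control (SE 0.07, adjusted p = 9.6e-06, edgeR), a 1.38-fold decrease. Against 30 min it fell by 0.54 (adjusted p = 1.2e-06), and by 0.61 without 24 h replicate 3, which is past the 1.5-fold limit. At 30 min its log2 fold change was 0.08 (SE 0.07, adjusted p = 0.76).

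BCL2L11 (ENSG00000153094, chr2:111119378-111168444, plus strand) encodes BIM, an activator of BAX and BAK that FOXO3 is known to induce. It read 10.4, 9.41 and 10.7 FPKM in control, 8.76, 9.61 and 9.56 FPKM at 30 min, and 7.75, 8.25 and 7.33 FPKM at 24 h. The libraries of 24 h lay below all others, while control and 30 min overlapped. BCL2L11 fell by 0.45 on the log2 scale at 24 h against control (SE 0.07, adjusted p = 1e-05, edgeR), a 1.37-fold decrease, and by 0.33 against 30 min (adjusted p = 0.00032). At 30 min its log2 fold change was -0.12 (SE 0.07, adjusted p = 0.58).

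Exons of BCL2L11 share 727 bases with the long non-coding RNA gene MIR4435-2HG on the other strand, and the strand setting of the read counting is not given in the sources used here. MIR4435-2HG read 4.14 ± 0.237 FPKM in control and 3.10 ± 0.217 FPKM at 24 h (SD, n = 3), the same direction as BCL2L11, and its part in the BCL2L11 value was not tested. The overlaps of BAK1 with GGNBP1 (91 bases, at most 0.56 FPKM), of MCL1 with ADAMTSL4-AS1 (328 bases, at most 0.28 FPKM) and of BBC3 with MIR3190 (80 bases, 0 FPKM in every library) involve genes with almost no reads.

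The 4 BH3-only genes summed to 39.8 ± 1.00 FPKM in control, 37.3 ± 0.568 FPKM at 30 min and 32.5 ± 1.47 FPKM at 24 h (SD, n = 3). BBC3 was 3.19% ± 0.800 of this sum in control and 9.32% ± 0.598 at 24 h, so its rise added little to a sum held mostly by BID, BCL2L11 and PMAIP1. The pro-survival sum over the BH3-only sum was 2.59 ± 0.112 in control, 2.71 ± 0.103 at 30 min and 3.93 ± 0.180 at 24 h. These sums and ratios hold members only and do not describe whole classes. Between control and 24 h the BH3-only genes BMF and BIK, outside the sum, went from 1.37 to 7.36 and from 4.98 to 7.12 FPKM. The BH3-only gene BAD went from 9.69 to 9.12 FPKM, and the pro-survival gene BCL2L2 from 4.11 to 6.81 FPKM. BIK and BAD were named after their values were seen.

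**Figure D3:**
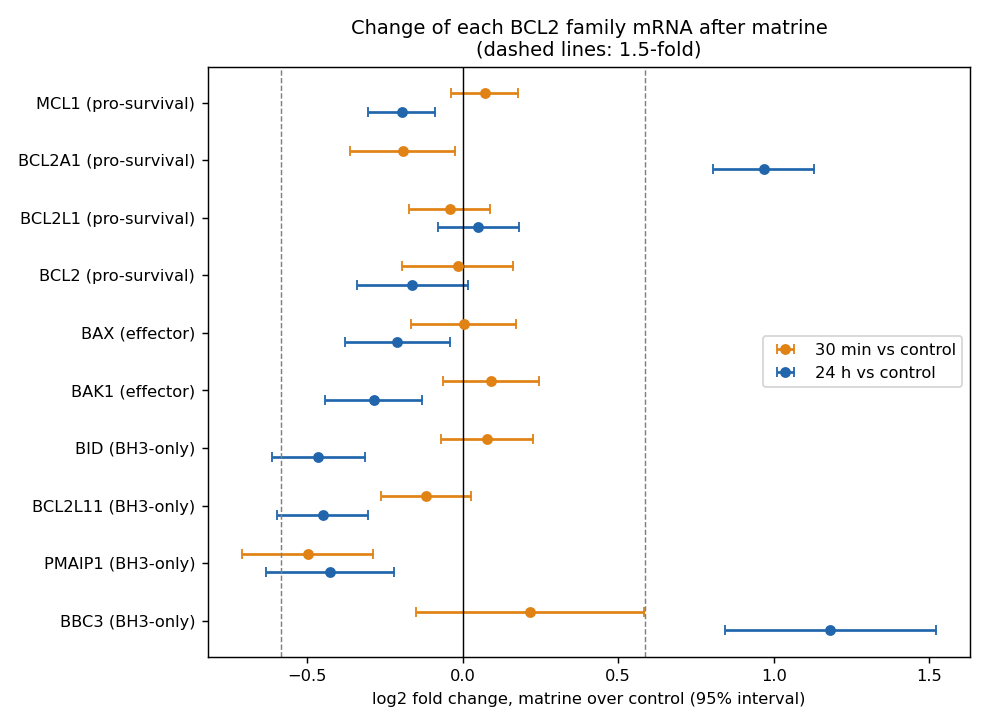
Log2 fold change of each member at 30 min and at 24 h against control with its 95% interval (edgeR), and dashed lines at 1.5-fold. BCL2A1 (0.97) and BBC3 (1.18) at 24 h are the points beyond the upper line, and the PMAIP1 points of both times lie at -0.50 and -0.43.

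Ordered by FPKM, the controls ran from MCL1 (52.9 ± 0.761) through BCL2A1, BAK1, BAX, BID, BCL2L1, BCL2L11, PMAIP1 and BCL2 to BBC3 (1.27 ± 0.300). In this order the libraries of BAX and BID, of BID and BCL2L1, and of BCL2L11 and PMAIP1 overlapped. At 24 h the order was BCL2A1 (54.3 ± 1.44), MCL1 (48.2 ± 0.798), BCL2L1, BAK1, BAX, BID, BCL2L11, PMAIP1, BCL2 and BBC3 (3.03 ± 0.310), with overlap between BCL2L1 and BAK1, BAK1 and BAX, and BCL2L11 and PMAIP1. BCL2A1 and MCL1 changed places, and BCL2L1 stood below BAK1, BAX and BID in control and beside BAK1 at 24 h.

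The gene lists around these members comprised 13 other BCL2 family genes, 14 genes of mitochondrial release and caspases, 6 inhibitors of apoptosis proteins, 10 genes of the death receptor pathway and 17 known regulators of the members. At 30 min, 0 genes of these lists passed the test, and the list medians of the log2 fold change lay between -0.05 and 0.03. Of the 13 other family genes, 8 were tested at 24 h, of which 5 rose and 1 fell, with a median of 0.31 (-0.01 over all tested genes, of which 30.6% rose and 32.7% fell). BMF, a BH3-only gene of cytoskeletal stress, rose 5.11-fold (log2 fold change 2.35, SE 0.09, adjusted p = 2.5e-14, edgeR), from 1.37 ± 0.0569 FPKM in control and 1.37 ± 0.0851 FPKM at 30 min to 7.36 ± 0.191 FPKM at 24 h. At 24 h BMF stood above BBC3, at a level near those of BCL2L11 and PMAIP1. In control the means of BMF and BBC3 were 1.37 and 1.27 FPKM, with overlapping libraries. BNIP3L, a mitophagy receptor, rose 3.80-fold to 20.8 ± 0.824 FPKM (adjusted p = 2.6e-13).

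BCL2L2, which encodes the pro-survival protein BCL-w, rose 1.58-fold at 24 h (log2 fold change 0.66, SE 0.12, adjusted p = 4.3e-05, edgeR). It read 4.11 ± 0.522 FPKM in control, 2.97 ± 0.614 FPKM at 30 min and 6.81 ± 0.308 FPKM at 24 h. The other 5 family genes (BCL2L10, HRK, BOK, BCL2L14 and BCL2L15) were too low to be tested.

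Among the 14 genes of mitochondrial release and caspases, 5 rose and 7 fell at 24 h, with a median of -0.19. Over all tested genes 30.6% rose and 32.7% fell, with a median of -0.01. VDAC1, the channel of the outer mitochondrial membrane, fell by 1.06 on the log2 scale (SE 0.06, adjusted p = 1.8e-12, edgeR), from 72.7 ± 1.12 to 36.3 ± 0.223 FPKM. The initiator caspase gene CASP9 rose 1.92-fold, from 1.76 to 3.51 FPKM (adjusted p = 6.5e-07). Named after their values were seen, CYCS and ENDOG, which encode proteins released from mitochondria, fell by 0.61 and 0.72 on the log2 scale (adjusted p = 9.5e-07 and 3.8e-05), and the caspase gene CASP6 rose by 0.30 (adjusted p = 0.0061).

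Of the 6 inhibitors of apoptosis proteins, 4 were tested at 24 h, of which 1 rose and 2 fell, with a median of -0.12. The shares over all tested genes were 30.6% and 32.7%. BIRC2, the gene of cIAP1, rose 1.80-fold from 3.62 to 6.80 FPKM (adjusted p = 7.7e-08, edgeR). Of the 10 death receptor genes, 4 rose and 2 fell at 24 h, beside the same shares over all tested genes. TRADD, an adaptor of the TNF receptor, rose 1.72-fold from 3.47 to 6.25 FPKM (adjusted p = 1.1e-06), and TNFRSF10A, a receptor for TRAIL, fell by 0.98 on the log2 scale from 1.64 to 0.863 FPKM (adjusted p = 8.6e-05), a gene near the limit on low levels. RIPK1, a kinase of the same receptor complex, rose 1.69-fold from 6.87 to 12.1 FPKM (adjusted p = 4.8e-08).

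Of the 17 known regulators of the members, 16 were tested at 24 h, of which 6 rose and 4 fell, with a median of 0.12. The shares over all tested genes were 30.6% and 32.7%. DDIT3, a stress factor known to act on BCL2L11 and BBC3, rose 5.13-fold (log2 fold change 2.36, SE 0.10, adjusted p = 8.3e-14, edgeR), from 6.20 ± 0.222 FPKM in control and 8.05 ± 0.849 FPKM at 30 min to 33.2 ± 2.19 FPKM at 24 h. ATF4, which is known to induce DDIT3, rose by 0.38 on the log2 scale (adjusted p = 2e-06, named after its value was seen). The NF-kB subunit genes NFKB1 and RELA had log2 fold changes of -0.18 and 0.15 (adjusted p = 0.011 and 0.066), both named after their values were seen.

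From 30 min to 24 h, 3 other family genes were called higher and 0 lower, 2 and 1 genes of mitochondrial release and caspases, 1 and 0 inhibitors of apoptosis proteins, 4 and 1 death receptor genes, and 2 and 0 regulators, with 15.7% and 11.3% of all tested genes called in these directions.

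**Figure D4:**
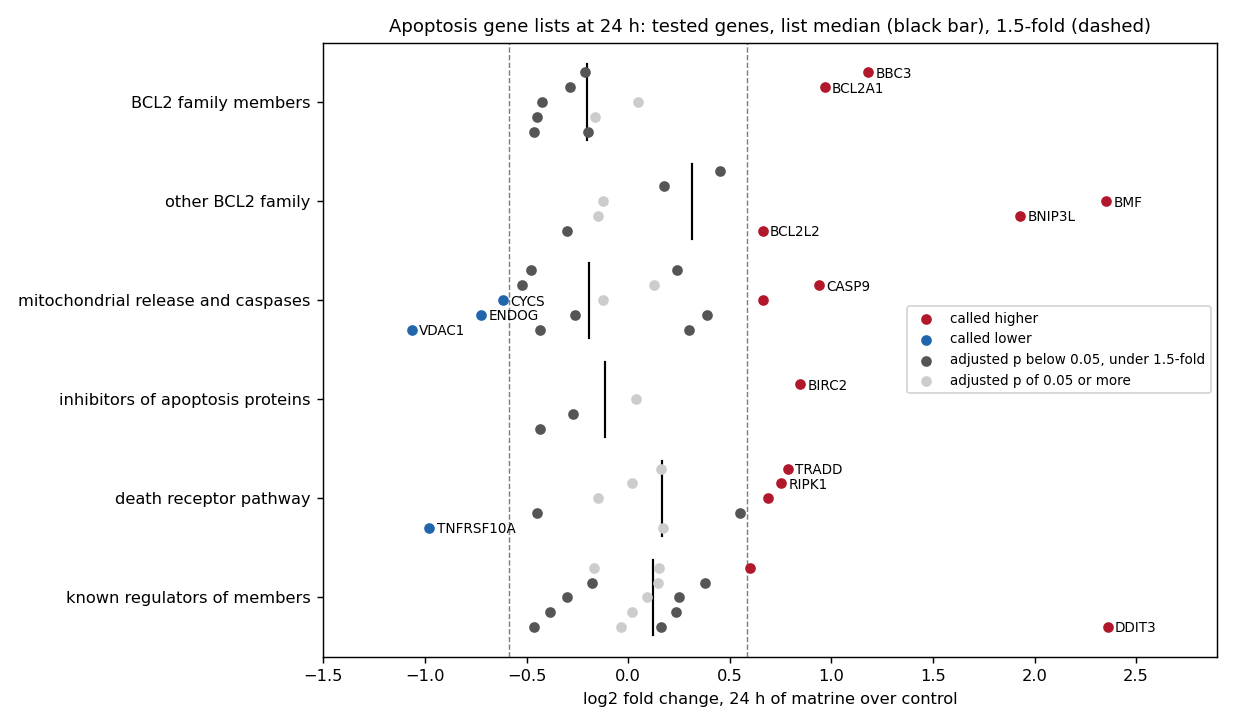
Log2 fold change at 24 h against control of the tested genes of the 10 members and of each list, with a black bar at the list median and dashed lines at 1.5-fold. Red and blue points are called higher and lower, gene names mark those described in the text, and DDIT3 (2.36), BMF (2.35) and BNIP3L (1.93) lie farthest to the right.

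For BBC3, the called member with the greatest change at 24 h, the most similar profiles over the 9 libraries were those of CAMP (Pearson r 0.991), JMJD6 (0.983), FAM110A (0.983), RRAGC-DT (0.98) and PHF1 (0.979), of 11898 tested genes. These 9 points share the rise at 24 h, and the likeness is a description with no test. CAMP, an antimicrobial peptide gene of myeloid cells, went from 0.523 to 3.23 FPKM and PHF1, a chromatin gene, from 5.43 to 10.3 FPKM between control and 24 h. The CAMP profile rests on few reads, 4 to 11 per control library and 45 to 55 at 24 h. RRAGC-DT had 6 to 19 reads per control library. No member was called at 30 min, so no profile was compared there.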

How the data were processed

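RNA was measured in 9 U937 libraries, 3 per group, each prepared with a VAHTS mRNA-seq V3 kit. The authors deposited raw counts per gene and FPKM values (normalized by gene length and counted reads) for each library. The submitters' processing notes name cutadapt 1.9.1, HISAT2 2.0.1 and HTSeq 0.6.1. They also name GRCh37, whereas the study's methods name hg38, so coordinates here are those of GENCODE release 44 and RefSeq on GRCh38 and not of the files. Strand setting, treatment of reads with several matches and annotation release are not given in the sources used here. The study's other cell lines (HL-60, K562) were left out here.

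Counts were fitted with edgeR 4.0.16 in R 4.3.3 (quasi-likelihood test, TMM scaling, all 9 libraries in one fit, Benjamini-Hochberg adjustment) over genes with a mean above 1 FPKM in the 6 libraries compared. The fit was tested on simulated data. The smallest two-sided p of an exact permutation test with 3 against 3 libraries is 0.1, so no single gene was tested that way. Depth was 17314931 to 21930018 counted reads per library. Alternatives were other filters and fold limits, library totals, DESeq2 1.42.0, limma 3.58.1 on log2(FPKM + 0.1) and log2(FPKM + 1), a replicate block, and each library left out.

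Named are all members, at most 8 called genes of the pathway lists per comparison by the size of change, the 5 genes most like the called member with the largest change, and cell type markers. Genes that share exon bases with a member are named too. Other genes outside this rule are said to be named after their values were seen. The members and lists were chosen with earlier results of these data known. Some genes of the lists are not reported here by name. Sums and ratios of FPKM are descriptions without a test.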

Additional observations from a re-analysis of the deposited data

Results flagged for a closer look

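For 7 members the difference from control at 24 h was not the same as at 30 min, by edgeR's test of the difference between the times, in which the controls cancel. On the log2 scale, 24 h minus 30 min was 1.16 for BCL2A1 (adjusted p = 7.9e-11) and 0.97 for BBC3 (adjusted p = 1.9e-05). It was -0.26 for MCL1, -0.33 for BCL2L11, -0.38 for BAK1 and -0.54 for BID, with adjusted p-values of 0.00013, 0.00032, 0.00016 and 1.2e-06. BAX had a difference of -0.21 (adjusted p = 0.027), but its adjusted p was above 0.05 in 7 of 18 alternatives. It was 0.17 with genes above 5 FPKM, 0.14 with library totals, 0.13 in both limma fits, 0.086 without 30 min replicate 1, 0.077 without 24 h replicate 1 and 0.14 without 24 h replicate 2.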

How the results depend on the processing

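The members' fold changes were recomputed under up to 21 alternatives per comparison, and 587 values kept their direction and side of the threshold, 2 lost the call, 23 gained it and 12 changed sign. At 24 h against control, 1 member was called higher with genes above 5 FPKM, where BBC3 was not tested (890 of all 7273 tested genes). At 2-fold, 1 was called higher (751 of 12035). Called lower were 6 members with no fold limit (3939 of 12035) and 4 at 1.2-fold (3311 of 12035). At 30 min, 1 member was called lower with no fold limit (154 of 11587) and 1 at 1.2-fold (151 of 11587). From 30 min to 24 h, 1 was called higher with genes above 5 FPKM (959 of 7195) and 1 at 2-fold (791 of 11981). In that comparison 1 was called lower with no filter (BID, 1937 of 28848), 5 with no fold limit (3844 of 11981) and 4 at 1.2-fold (3215 of 11981). With single libraries left out, 0 to 1 were called lower (1346 to 1436 of 11905 to 12074). Values near 0 changed sign: BAX at 30 min was -0.000668 with genes above 5 FPKM, -0.00965 with library totals, -0.00661 and -0.00647 with limma, and -0.0502 to 0.0772 without single libraries. BCL2 at 30 min was -0.0781 to 0.0487 without single libraries, and BCL2L1 at 24 h was -0.00284 with no filter. From 30 min to 24 h, BCL2L1 passed the test in 4 of 18 alternatives (adjusted p = 0.01 with genes above 5 FPKM, 0.022 with library totals, 0.0097 and 0.0094 with limma) and BCL2 in 2 of 17 (0.049 with no filter, 0.03 without 30 min replicate 3). The cause was not tested.

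Same-numbered libraries did not deviate together (correlations -0.159 to 0.103, 1 of 9 above 0.1), so the numbers were not taken as pairs. With the replicate block, BCL2A1 and BBC3 at 24 h had log2 fold changes of 0.97 and 1.19, and PMAIP1 at 30 min -0.50, and no count of called members changed. With 3 libraries per group and 52 to 101 reads per control library, BBC3 at 30 min is the member least well measured.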
